A study of Saccharomyces cerevisiae with 42 samples.

Results

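Mitochondria keep a small set of chaperones and proteases in their matrix, and 8 genes that encode this set in budding yeast are described here: HSP60, HSP10, SSC1, ECM10, MDJ1, MGE1, HSP78 and PIM1. They were taken by gene symbol from the platform annotation, 8 of the 5656 genes measured, and each has 1 probe set on the array. All 8 were measured and all 8 entered every test, with no filter on dim signals.

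Total RNA of Saccharomyces cerevisiae, grown in YPD medium and in log phase, was labelled with biotin and hybridised to 42 Affymetrix arrays of 1 colour. JK939a, the parental strain, was set beside dpl1D (dpl1:KanMX), which lacks the lyase that degrades sphingoid base phosphates, phosphorylated forms of the sphingolipid backbone, and beside lcb4D/lcb5D (lcb4::KanMX lcb5::KanMX), which lacks the kinases that make these phosphates. All 3 strains, the parental one included, are MAT α with HMLa and carry rme1, trp1 and his4 together with ura3-52 and leu2-3 112, and the labels list KanMX, a drug-resistance marker, in the deletion strains only. Heat meant 39 C, and RNA was taken from every strain at 7 times, namely before heat and at 5, 10, 15, 20, 25 and 30 min. Each of these 21 groups has 2 arrays; nothing in the labels says that the arrays numbered 1 and 2 came from separate cultures, so the p-values measure the spread between these arrays, which may be technical.

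Most mitochondrial proteins are made in the cytosol, pulled into the matrix as unfolded chains and folded there. Ssc1, the main matrix Hsp70, binds the incoming chain; the J protein Mdj1 stimulates its ATPase and the exchange factor Mge1 resets it. The chaperonin Hsp60 with its lid Hsp10 folds proteins inside a closed chamber, Hsp78 pulls aggregated proteins apart, and the Lon-type protease Pim1 degrades those that cannot be refolded. Heat unfolds proteins, and several of these genes are known heat shock genes in yeast.

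DPL1 read 2.58 to 3.63 in the 14 dpl1D arrays against 8.72 to 9.81 in the 14 parental arrays, and LCB4 and LCB5 were likewise lower in every lcb4D/lcb5D array than in any parental array. The alpha-cell pheromone gene MF(ALPHA)1 averaged 12.1 to 12.2 before heat in the 3 strains and the a-cell receptor gene STE2 averaged 2.73 to 2.84, in strains labelled MAT α. Array medians lay between 5.61 and 5.80. The 2 replicate numbers differed in other ways: the 18S ribosomal RNA control averaged 13.1 on the 21 arrays numbered 1 and 7.05 on those numbered 2, and the 3′ minus 5′ signal of the SRB4 control averaged 0.52 and 1.97. One array stood apart by label: a probe set without a gene name read at least 11.8 in the 28 deletion arrays and at most 4.27 in 13 parental arrays, but 8.15 in parental replicate 1 before heat. Whether that array holds some RNA of a deletion strain was not tested, and this limits every parental difference from before heat. The main parental results are therefore also given without it.

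All values below are log2 signals as deposited, or differences of them, so a difference of 1 is 2-fold; a value is relative to the other transcripts on its array, and levels of different genes are not compared. Each adjusted p comes from limma's moderated test with Benjamini-Hochberg adjustment over all 5656 genes, and a gene is said to rise or fall where that adjusted p is under 0.05. The fit has no term for the replicate number, except where a value with the replicate block is named. In RNA from whole cultures, fewer cells with a transcript and less of it per cell cannot be told apart.

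Over the 6 heated times together, HSP78, MDJ1, HSP60, HSP10 and SSC1 rose in the parental strain and MGE1 fell, while ECM10 and PIM1 did not pass the test. That is 5 of the 8 genes higher, against 21.8% of all genes, and 1 lower, against 24.5%. In dpl1D 7 of the 8 rose, against 20.6% of all genes, and MGE1 fell, against 26.6%. In lcb4D/lcb5D HSP78, MDJ1, HSP60, HSP10 and ECM10 rose, again 5 of 8 against 19.1%, and MGE1 fell, against 25.2%. The median difference of the 8 genes was 1.18, 0.98 and 0.62 in the parental strain, dpl1D and lcb4D/lcb5D, where the median of all genes was -0.02, -0.05 and -0.02.

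**Figure D1:**
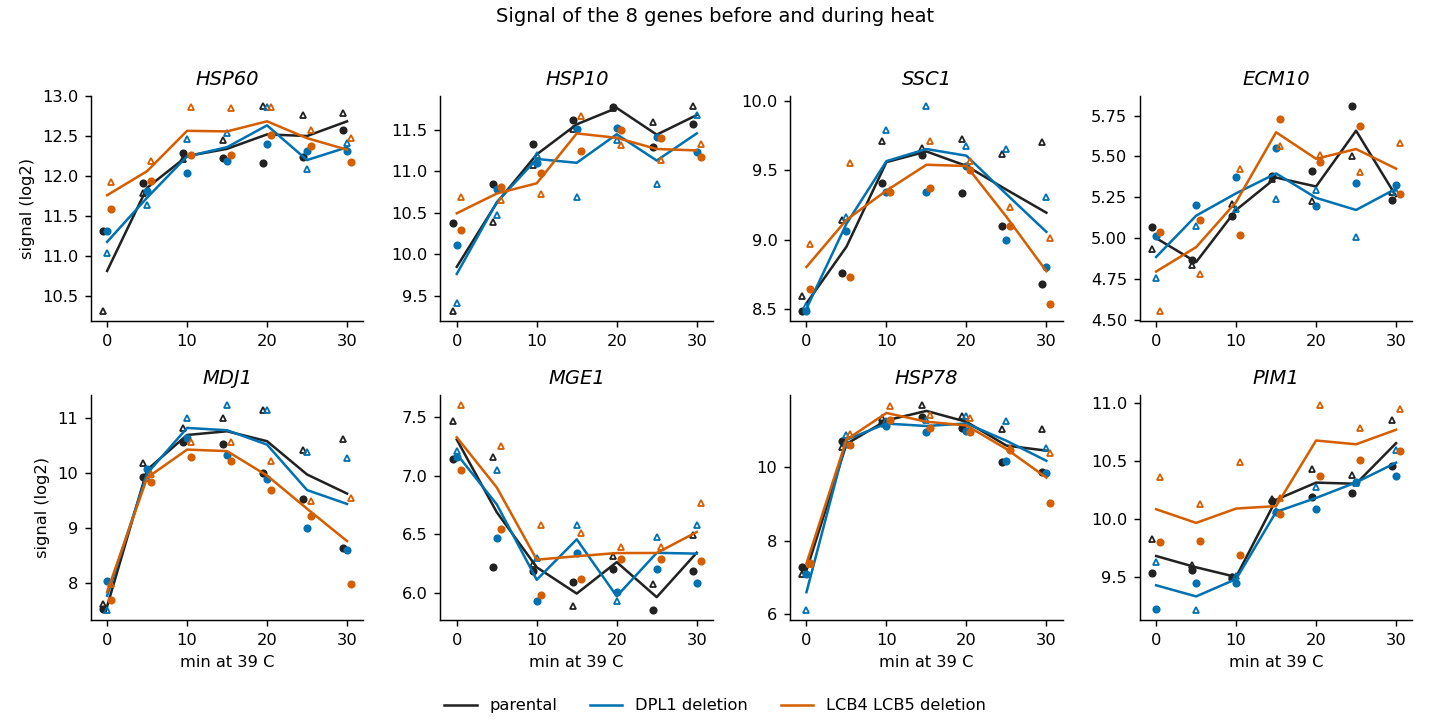
Signal (log2, vertical axis, separate scale for each gene) against minutes at 39 C for the 8 genes. Lines join the means of 2 arrays in the parental strain (black), the DPL1 deletion (blue) and the LCB4 LCB5 deletion (orange); filled circles are replicate 1 and open triangles replicate 2, shifted slightly sideways by strain. HSP78 and MDJ1 climb within 5 min and are lower again at 30 min, HSP60 and HSP10 have parental means at 30 min near their highest, PIM1 is highest at 30 min and MGE1 is highest before heat.

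HSP78, the Clp-family disaggregase of the matrix, had the largest response of the 8 genes in all 3 strains. Through the 7 times, parental replicate 1 read 7.28, 10.72, 11.20, 11.37, 11.08, 10.14 and 9.87 and replicate 2 read 7.11, 10.55, 11.35, 11.70, 11.40, 11.04 and 11.04. Every heated array was thus far above both arrays before heat, and 5 min was enough for most of the rise. The mean heated level was 3.76 ± 0.31 (SE, 2 arrays a group) above that before heat, a 13.6-fold rise (limma adjusted p = 5.19e-10), and 3.85 without parental replicate 1 before heat. In dpl1D the arrays before heat read 7.09 and 6.11 and the heated arrays 9.84 to 11.39, a mean rise of 4.26 ± 0.31 or 19.1-fold (limma adjusted p = 3.86e-11). In lcb4D/lcb5D the arrays before heat read 7.39 and 7.37 and the heated arrays 9.04 to 11.68, a mean rise of 3.43 ± 0.31 or 10.7-fold (limma adjusted p = 2.66e-09).

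HSP78 did not hold its highest level. Its mean peaked at 15 min in the parental strain, at 20 min in dpl1D and at 10 min in lcb4D/lcb5D, by 4.34, 4.59 and 4.10 over the level before heat. At 30 min 75.1%, 77.9% and 57.1% of that largest log2 rise was left. In lcb4D/lcb5D the 2 arrays at 30 min read 9.04 and 10.40, so the replicates lay further apart there than at 5 min, where they read 10.60 and 10.91.

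MDJ1 encodes the J protein that delivers substrates to Ssc1, and it rose next most. Parental replicate 1 went through 7.51, 9.92, 10.56, 10.52, 10.00, 9.52 and 8.62 from before heat to 30 min, and replicate 2 through 7.62, 10.18, 10.81, 10.99, 11.14, 10.41 and 10.62. The replicates lay close up to 10 min and then parted, replicate 1 coming down further than replicate 2. The mean rise was 2.71 ± 0.45 or 6.54-fold in the parental strain (limma adjusted p = 2.04e-05), and 2.66 without parental replicate 1 before heat. It was 2.44 ± 0.45 in dpl1D (limma adjusted p = 7.17e-05), where replicate 1 gave 1.73 and replicate 2 gave 3.15. In lcb4D/lcb5D the mean rise was 1.97 ± 0.45 (limma adjusted p = 0.000891). There the arrays read 7.68 and 7.98 before heat, 10.29 and 10.55 at 10 min, when the mean was highest, and 7.97 and 9.54 at 30 min, so that 1 of the 2 arrays at 30 min lay between those before heat.

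The other partners of the Hsp70 cycle had smaller differences than MDJ1. SSC1, the Hsp70 itself, read 8.49, 8.76, 9.41, 9.61, 9.33, 9.10 and 8.68 over the 7 times in parental replicate 1 and 8.60, 9.14, 9.71, 9.66, 9.73, 9.62 and 9.70 in replicate 2. All 12 heated arrays were above both arrays before heat, by little at 30 min in replicate 1. The mean rise was 0.83 ± 0.24 in the parental strain (limma adjusted p = 0.0054) and 0.88 ± 0.24 in dpl1D (limma adjusted p = 0.00319). Without parental replicate 1 before heat the parental value was 0.77 and the parental call was lost, with 1 array left before heat. Without parental replicate 2 before heat the value was 0.88. In lcb4D/lcb5D the mean difference was 0.45 ± 0.24 (limma adjusted p = 0.134, and 0.0234 once the replicate number entered the fit as a block, separately in each strain). SSC1 peaked at 15 min in all 3 strains, and in lcb4D/lcb5D it read 8.54 and 9.01 at 30 min against 8.64 and 8.97 before heat.

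ECM10, a second matrix Hsp70 closely related to Ssc1, varied least over the arrays. Over all 42 it read 4.55 to 5.81. This was a low signal, with a mean of 5.24 against a lowest array median of 5.61. Its mean heat difference was 0.27 ± 0.15 in the parental strain (limma adjusted p = 0.144), 0.37 ± 0.15 in dpl1D (limma adjusted p = 0.0446) and 0.58 ± 0.15 in lcb4D/lcb5D (limma adjusted p = 0.00246). The lcb4D/lcb5D arrays before heat read 5.04 and 4.55, and without the lower of these, replicate 2, the difference was 0.34 (limma adjusted p = 0.209). The dpl1D call also ended without replicate 2 before heat, at 0.24 (limma adjusted p = 0.399), and under 17 of the 53 alternative settings in all.

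MGE1, the nucleotide exchange factor of Ssc1, went the other way from the rest. In the order of the 7 times, the parental arrays numbered 1 read 7.14, 6.22, 6.19, 6.09, 6.20, 5.85 and 6.19 and those numbered 2 read 7.47, 7.16, 6.25, 5.89, 6.32, 6.07 and 6.49. Only the replicate 2 array at 5 min lay above an array before heat, and the mean was highest before heat in each strain. MGE1 fell by 1.07 ± 0.22 in the parental strain (limma adjusted p = 0.00033), by 0.86 in dpl1D (limma adjusted p = 0.00257) and by 0.88 in lcb4D/lcb5D (limma adjusted p = 0.0023). Without lcb4D/lcb5D replicate 2 before heat that last difference was -0.60 (limma adjusted p = 0.141).

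The chaperonin pair, HSP60 and HSP10, rose in all 3 strains over the heated times together. HSP60, the chamber, read 11.31, 11.91, 12.29, 12.22, 12.16, 12.23 and 12.58 in parental replicate 1, from before heat to 30 min, and 10.31, 11.79, 12.21, 12.45, 12.88, 12.77 and 12.79 in replicate 2. The 2 arrays before heat were a log2 unit apart, and all 12 heated arrays were above both. HSP10, the lid, had the same split before heat: over the 7 times it read 10.38, 10.85, 11.33, 11.63, 11.77, 11.29 and 11.57 in parental replicate 1 and 9.32, 10.39, 11.08, 11.51, 11.76, 11.59 and 11.79 in replicate 2. Both genes therefore had their larger rise in replicate 2, where the starting level was lower.

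The mean rise of HSP60 was 1.54 ± 0.23 or 2.92-fold in the parental strain (limma adjusted p = 3.56e-06), with 0.92 in replicate 1 and 2.17 in replicate 2. It was 1.08 ± 0.23 in dpl1D (limma adjusted p = 0.000307) and 0.69 ± 0.23 in lcb4D/lcb5D (limma adjusted p = 0.0157). HSP10 rose by 1.53 ± 0.23 in the parental strain (limma adjusted p = 5.38e-06), by 1.39 in dpl1D (limma adjusted p = 1.92e-05) and by 0.67 in lcb4D/lcb5D (limma adjusted p = 0.0211). The values fell in the same order of strains for both genes, and both lcb4D/lcb5D calls were lost without replicate 1 before heat, at 0.52 for HSP60 (limma adjusted p = 0.225) and 0.47 for HSP10 (limma adjusted p = 0.288). The size of the parental rises rests on which array before heat is used: they were 2.04 for HSP60 and 2.06 for HSP10 without replicate 1, and 1.04 (limma adjusted p = 0.00482) and 1.00 (limma adjusted p = 0.00737) without replicate 2. At 30 min HSP60 still had all of its largest log2 rise in the parental strain, 81.1% in dpl1D and 61.6% in lcb4D/lcb5D. In lcb4D/lcb5D the differences at 30 min, 0.57 for HSP60 (limma adjusted p = 0.168) and 0.76 for HSP10 (0.0677, and 0.0357 with the block), did not pass.

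PIM1, the Lon protease, was the late gene of the set. From before heat to 30 min, its level was 9.54, 9.57, 9.50, 10.16, 10.20, 10.23 and 10.46 in parental replicate 1 and 9.83, 9.61, 9.50, 10.18, 10.43, 10.38 and 10.85 in replicate 2. Up to 10 min the level stayed near that before heat, and from 15 min on every array was above both arrays before heat. Over all heated times the difference was 0.41 ± 0.19 in the parental strain (limma adjusted p = 0.0798, and 0.0103 with the replicate block), 0.55 ± 0.19 in dpl1D (limma adjusted p = 0.0181) and 0.29 ± 0.19 in lcb4D/lcb5D (limma adjusted p = 0.221). The dpl1D call was lost without replicate 1 before heat, which read 9.23 against 9.63 in replicate 2, leaving 0.35 (limma adjusted p = 0.305), and under cyclic loess normalisation (limma adjusted p = 0.0812). The PIM1 mean was highest at 30 min in each strain, where it rose by 0.97 ± 0.25 in the parental strain (limma adjusted p = 0.00281), 1.05 in dpl1D (limma adjusted p = 0.00127) and 0.68 in lcb4D/lcb5D (limma adjusted p = 0.0413). The parental call was lost without replicate 2 at 30 min (0.77, 0.0678), and the lcb4D/lcb5D call without replicate 1 before heat (0.40, 0.391), without replicate 2 at 30 min (0.50, 0.326) and with only the compared strains in the fit (0.161). Without parental replicate 1 before heat, the parental mean difference was -1.23 for MGE1 (limma adjusted p = 0.00291), 0.34 for ECM10 (0.215) and 0.26 for PIM1 (0.467).

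**Figure D2:**
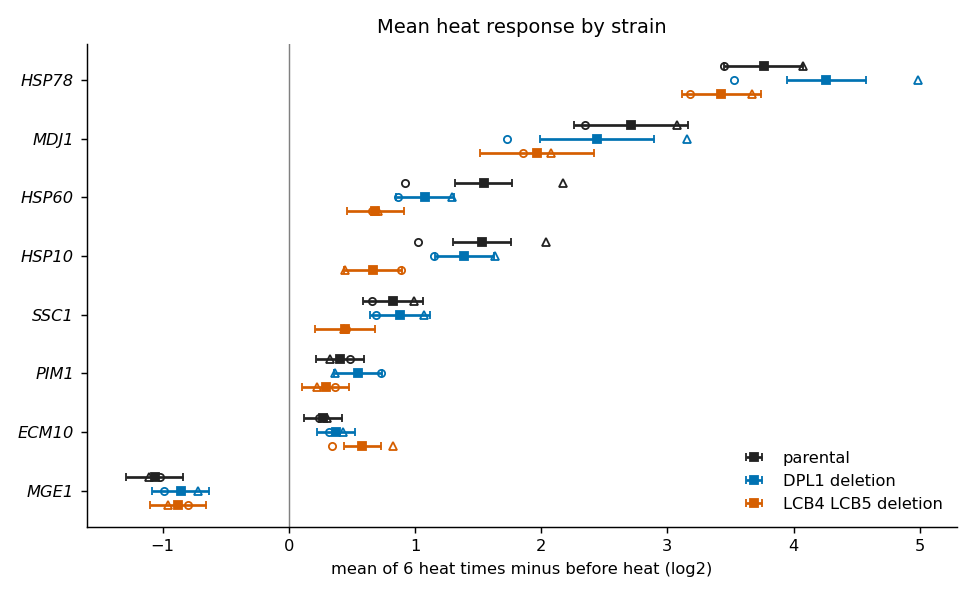
Mean of the 6 heat times minus the level before heat (log2, horizontal axis) for each gene and strain. Squares with bars are the estimate and its SE from the fit, open circles replicate 1 and open triangles replicate 2. HSP78 lies at 3.43 to 4.26 and MDJ1 at 1.97 to 2.71, and MGE1 is the only gene below 0 in each strain.

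The groups before and during heat did not overlap for several of these genes. In the parental strain all 12 heated arrays lay above both arrays before heat for HSP60, HSP10, SSC1, MDJ1 and HSP78, 5 of the 8 genes against 15.5% of all genes. The same 5 did so in dpl1D, against 16% of all genes. In lcb4D/lcb5D only HSP60 and HSP78 did, 2 of 8 against 13.2%. Below both arrays before heat there were 0 of the 8 in the parental strain (15.8% of all genes), 1 in dpl1D, MGE1 (21.7%), and 0 in lcb4D/lcb5D (18.7%).

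Time by time, more of the set had changed at 10 min and later than at 5 min. In the parental strain 3 of the 8 genes had changed at 5 min, HSP60, MDJ1 and HSP78, against 14.2% of all genes. At 10, 15, 20, 25 and 30 min the counts were 6, 6, 7, 8 and 6, against 33.5%, 42.5%, 42.9%, 39% and 36.3% of all genes. The 8 of 8 at 25 min rested in part on PIM1, at 0.62 (limma adjusted p = 0.0464), a call lost under 32 of 53 alternative settings. Among these were leaving out replicate 1 (0.47) or replicate 2 (0.77) before heat. The SSC1 call at 25 min, 0.82 (limma adjusted p = 0.0389), was also lost without either of these arrays (0.76 and 0.87). That of ECM10, 0.66 (limma adjusted p = 0.0093), was lost without replicate 2 before heat (0.59). The SSC1 calls at 10 and 20 min, 1.01 and 0.99, were lost without replicate 1 before heat (0.96 and 0.93). In dpl1D 2 genes had changed at 5 min, MDJ1 and HSP78 (14.8% of all genes), and then 6, 7, 7, 7 and 6, against 35.3%, 40.5%, 44.4%, 42% and 37.8%. In lcb4D/lcb5D the same 2 had changed at 5 min (16.2%), and then 4, 6, 6, 5 and 4, against 38.7%, 39.7%, 39.7%, 35.3% and 26.1%. All these comparisons within a strain share the 2 arrays before heat.

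MDJ1 and HSP78 were thus called at 5 min in every strain, by 2.49 ± 0.59 and 3.44 ± 0.41 at 5 min in the parental strain (limma adjusted p = 0.00468 and 1.91e-06). The MDJ1 values at 5 min were 2.23 in dpl1D (limma adjusted p = 0.00997) and 2.08 in lcb4D/lcb5D (0.0167), and these calls were lost without single arrays: dpl1D replicate 2 before heat (1.96, 0.0991), either dpl1D array at 5 min (0.0551 and 0.0733), or any of the 4 lcb4D/lcb5D arrays before heat and at 5 min (0.0528 to 0.11). HSP60 also passed at 5 min in the parental strain, at 1.04 ± 0.30 (limma adjusted p = 0.0179), but at 0.54 (0.399) without replicate 2 before heat. That call was also lost without either parental array at 5 min (0.119 and 0.0624) and with only the compared strains in the fit (0.0779). The HSP60 difference at 5 min was 0.55 in dpl1D (limma adjusted p = 0.262) and 0.30 in lcb4D/lcb5D (limma adjusted p = 0.59), and the strains were not compared at that time alone. MGE1 differed by -0.62 at 5 min in the parental strain (limma adjusted p = 0.189, and 0.0339 with the replicate block) and had fallen by 1.09 at 10 min (limma adjusted p = 0.00502, and 0.0641 without parental replicate 2 before heat). PIM1 first passed at 20 min in the parental strain, by 0.63 ± 0.25 (limma adjusted p = 0.0396). That call was lost without replicate 1 before heat (0.48, 0.222), without either array at 20 min (0.0555 and 0.21) and under cyclic loess (0.0947). Its value of 0.48 at 15 min had an adjusted p of 0.117, or 0.0194 with the block. Over the 48 combinations of gene and time, 36 were called in the parental strain, 35 in dpl1D and 27 in lcb4D/lcb5D, and 39, 39 and 34 with the block. The shares of all genes given above for each time are without the block. How many of all genes were called with it was not counted, so the gain is not read as particular to this set. With 1 array left out at a time, the count of each strain was lowest without its own replicate 2 before heat.

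The later part of the course was set against the middle, as the mean of 25 and 30 min minus the mean of 10 and 15 min. PIM1 was the gene that still gained: in the parental strain its 2 replicates averaged 9.83 and 9.84 in the middle and 10.34 and 10.62 late. It was higher late than in the middle by 0.64 ± 0.17 in the parental strain (limma adjusted p = 0.0206), 0.63 in dpl1D (limma adjusted p = 0.0265) and 0.61 in lcb4D/lcb5D (limma adjusted p = 0.0231), 1 of the 8 genes in each strain against 5.16%, 3.82% and 9.02% of all genes. All 6 replicate courses showed this direction, with gains of 0.51 to 0.78.

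MDJ1 and HSP78 fell over the same interval in lcb4D/lcb5D. There HSP78 averaged 11.17 and 11.55 in the middle and 9.76 and 10.46 late, and MDJ1 averaged 10.25 and 10.56 in the middle and 8.59 and 9.51 late. Both replicates of both genes were lower late. HSP78 was lower by 1.25 ± 0.29 (limma adjusted p = 0.006) and MDJ1 by 1.36 ± 0.42 (limma adjusted p = 0.0344), 2 of the 8 genes against 2.99% of all genes. Without lcb4D/lcb5D replicate 1 at 30 min these differences were -0.91 (limma adjusted p = 0.0711) and -0.97 (limma adjusted p = 0.219).

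In the parental strain 0 of the 8 genes were lower late by limma's test, against 3.22% of all genes. In dpl1D there were also 0, against 3.43%. At an unadjusted limma p under 0.05, with either direction and PIM1 included, there were 3 of the 8 in each strain. At that threshold 1244 of all 5656 genes passed in the parental strain and 1181 in dpl1D. The parental values were -0.88 ± 0.29 for HSP78 (limma adjusted p = 0.0579) and -0.93 ± 0.42 for MDJ1 (limma adjusted p = 0.187). With the replicate block both passed, at 0.0152 and 0.037. In dpl1D HSP78 differed by -0.71 (limma adjusted p = 0.146, and 0.0529 with the block within each strain or 0.0498 with it across strains) and MDJ1 by -1.24 (limma adjusted p = 0.072, and 0.00689 with the block). The size of the difference followed the replicate number: for MDJ1 it was -1.47 in parental replicate 1 and -0.38 in replicate 2, and -1.68 and -0.79 in dpl1D. SSC1 differed by -0.32, -0.42 and -0.48 in the 3 strains, and only the last passed, with the block (limma adjusted p = 0.175 without it and 0.025 with it). Whether the 18S and SRB4 values of the 2 replicate numbers have a part in this was not tested.

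**Figure D3:**
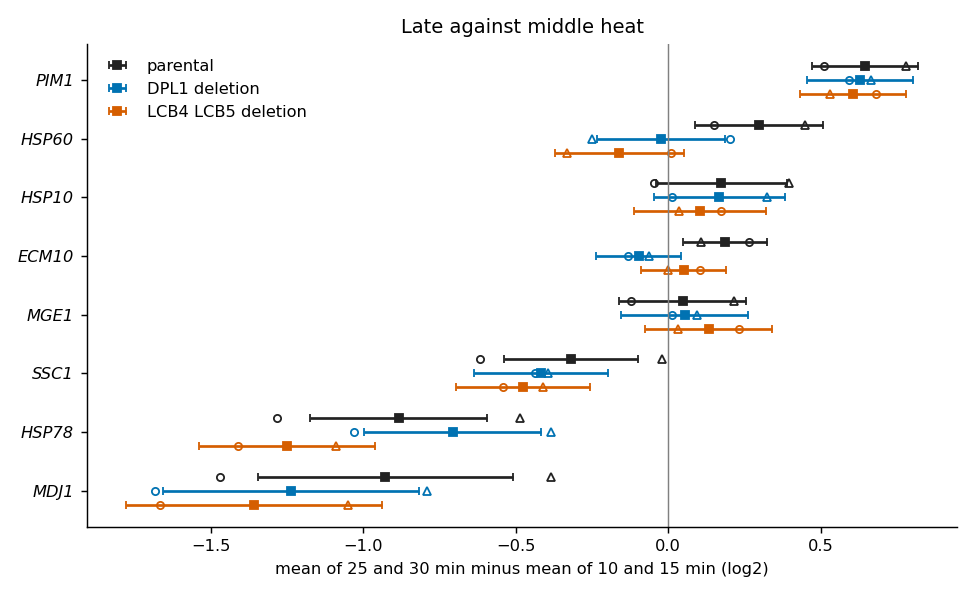
Mean of 25 and 30 min minus mean of 10 and 15 min (log2, horizontal axis) for each gene and strain, with squares and bars for the estimate and its SE, open circles for replicate 1 and open triangles for replicate 2. PIM1 lies at 0.61 to 0.64 and MDJ1 at -1.36 to -0.93, and replicate 1 is the lower of the 2 for MDJ1 and HSP78 in every strain.

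The level of some of these genes also differed by replicate number, and how many of all genes did so was not counted. SSC1 was higher in replicate 2 in 21 of 21 groups, by 0.35 on average, and MDJ1, MGE1 and PIM1 were higher there in 19 of 21. HSP78 was higher in replicate 2 in 17 of 21 groups and HSP60 in 15. HSP10 was higher in replicate 2 in 7 of 21 groups and ECM10 in 6. The difference was thus not 1 shift common to the set.

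Few of these genes differed between strains. Before heat 0 of the 8 passed limma's test between dpl1D and the parental strain (0.0177% of all genes). The same held between lcb4D/lcb5D and the parental strain (0.106%) and between dpl1D and lcb4D/lcb5D (0.141%). At an unadjusted limma p under 0.05 there were 0, 2 and 2 of the 8, and 131, 250 and 185 of all 5656 genes. The 2 genes of lcb4D/lcb5D against the parental strain were HSP60 and HSP10. HSP60 did not overlap between these strains, but the share of all genes without such overlap was not counted. It read 11.59 and 11.92 in lcb4D/lcb5D and 11.31 and 10.31 in the parental strain. The difference was 0.95 ± 0.30 (unadjusted p = 0.00382, limma adjusted p = 0.491), or 1.45 with an adjusted p of 0.0466 without parental replicate 1 and 0.45 with an adjusted p of 1 without parental replicate 2. HSP10 read 10.30 and 10.69 against 10.38 and 9.32, which overlap, and differed by 0.65 ± 0.30 (limma adjusted p = 1).

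Over all 7 times together, PIM1 was the 1 gene of the 8 that differed between strains. It was higher in lcb4D/lcb5D than in the parental strain by 0.31 ± 0.09 (limma adjusted p = 0.0227), where 19.5% of all genes differed, and higher at 6 of 7 times. PIM1 was lower in dpl1D than in lcb4D/lcb5D by 0.44 ± 0.09 (difference -0.44, limma adjusted p = 0.00299), where 12.8% of all genes differed, and lower at 7 of 7 times. The shares of all genes are so large that 1 gene of 8 is near them. Between dpl1D and the parental strain 0 of the 8 differed (0.0177% of all genes). At an unadjusted limma p under 0.05 there were also 0 of the 8, and 213 of all 5656 genes. The PIM1 difference was -0.13 ± 0.09 (limma adjusted p = 0.998).

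The PIM1 arrays show where the lcb4D/lcb5D difference lay. From before heat to 30 min, its replicate 2 read 10.37, 10.13, 10.50, 10.18, 10.98, 10.78 and 10.95, above parental replicate 2 at 6 of these times and equal to it to 2 decimals at 15 min. Replicate 1 read 9.81, 9.81, 9.69, 10.05, 10.37, 10.51 and 10.59 at the same times. The mean difference from the parental strain was 0.17 in replicate 1 and 0.44 in replicate 2. The call against the parental strain was lost without lcb4D/lcb5D replicate 2 before heat (0.27, limma adjusted p = 0.054), at 10 min (0.25, 0.0533), at 20 min (0.26, 0.0556) or at 25 min (0.29, 0.0515), and with arrays centred on their medians (0.25, 0.0799). Without parental replicate 1 before heat it held, at 0.28 (0.0445). The call against dpl1D held without any single array.

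The heat response itself was compared between strains as a difference of differences, and 0 of the 8 genes passed limma's test. For the mean heat response the shares of all genes were 0% for dpl1D and 0.0177% for lcb4D/lcb5D against the parental strain, and 0% between the deletion strains. At an unadjusted limma p under 0.05 there were 0, 2 and 1 of the 8, and 111, 171 and 172 of all 5656 genes. The joint test of the 6 times likewise gave 0 of the 8 in the 3 pairs, where 0%, 0.0177% and 0.0354% of all genes passed. At an unadjusted p under 0.05 that test gave 0 of the 8 in each pair, and 27, 171 and 145 of all genes. The closest were HSP60 and HSP10 in lcb4D/lcb5D, whose rises were smaller than in the parental strain by differences of -0.86 ± 0.32 (unadjusted p = 0.0129) and -0.86 ± 0.33 (unadjusted p = 0.0144), both with a limma adjusted p of 0.999. Without parental replicate 1 before heat they were -1.36 and -1.40, with limma adjusted p of 0.159 and 0.143, and without parental replicate 2 before heat they were -0.36 and -0.33, each with an adjusted p of 0.998. Averaged over all 7 times HSP60 differed by 0.21 and HSP10 by -0.09 between those strains. The 95% interval of the difference in HSP78 response between lcb4D/lcb5D and the parental strain ran from -1.26 to 0.59.

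**Figure D4:**
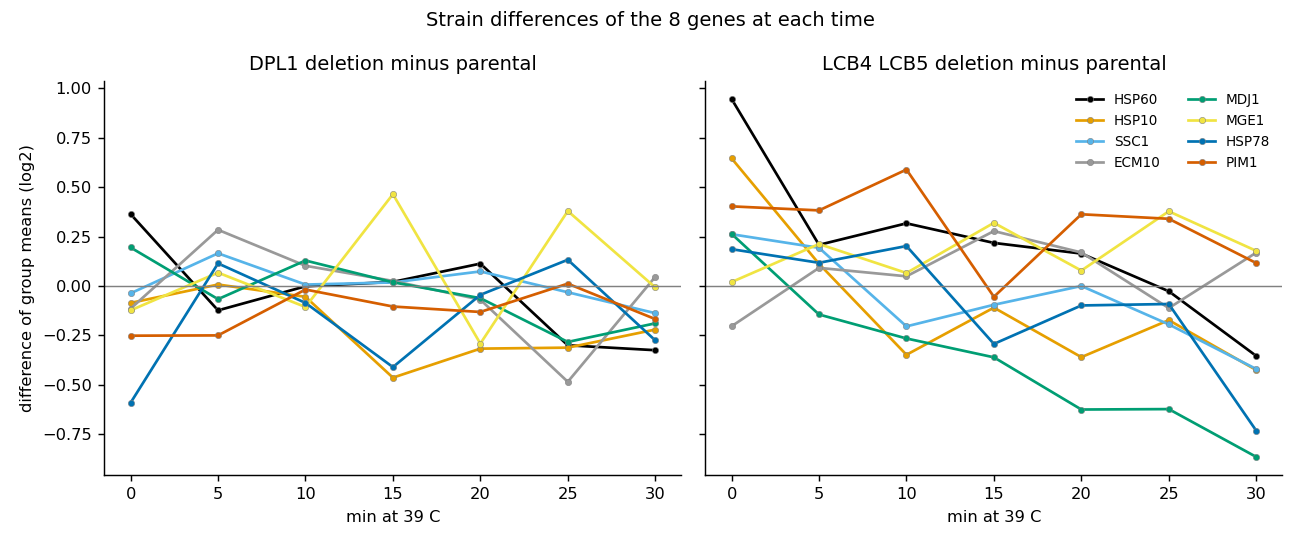
Difference of group means from the parental strain (log2, vertical axis) at each time (minutes at 39 C) for the 8 genes, in the DPL1 deletion (left) and the LCB4 LCB5 deletion (right); each point is a mean of 2 arrays minus a mean of 2 arrays. HSP60 in the LCB4 LCB5 deletion starts at 0.95 and ends at -0.35, and MDJ1 there ends at -0.87.

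Across the 21 means of strain and time the genes fell into patterns, given as descriptions since the means share arrays before heat and a common heat course. HSP60 and HSP10 correlated at 0.92 and MDJ1 and HSP78 at 0.95. SSC1 correlated at 0.92 with MDJ1. PIM1 correlated at 0.00 with MDJ1 and at 0.64 with both HSP60 and HSP10. MGE1 correlated negatively with the other 7 genes, from -0.37 with PIM1 to -0.86 with HSP10. Among all genes, the profile most like HSP78 was that of HSP42 (0.99), followed by HSP104 (0.99), the cytosolic disaggregase of the same Clp family. The profile most like MDJ1 was that of SIS1 (0.98), a J protein of the cytosol and nucleus. MGE1 was most like TOM20 (0.96), an import receptor of the outer membrane, and PIM1 was most like PRM5 (0.96). HSP60 was most like CSC1 (0.96), HSP10 like HOR7 (0.97), SSC1 like RSC9 (0.95) and ECM10 like VPS35 (0.88). The 8 other genes closest to the mean profile of the set were CYB2, AHA1, GRE3, SSE2, YBR085C-A, CPR6, HSP104 and GSY2, at 0.98 to 0.99. That profile averages log2 values without scaling, so genes with larger changes weigh more in it. The members themselves were less close to it. HSP78 correlated with it at 0.96, HSP60, HSP10, SSC1 and MDJ1 at 0.89 to 0.92, ECM10 at 0.68, PIM1 at 0.42 and MGE1 at -0.88.

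Related gene lists are set beside these genes, with counts to be read against the shares of all genes. Of 10 other mitochondrial Hsp70 and J proteins and their helpers, 1 rose and 3 fell in the parental strain, with a median of 0.03, where 21.8% of all genes rose and 24.5% fell. ISU1, the scaffold for iron-sulfur clusters, rose by 1.38 ± 0.17 (limma adjusted p = 4.15e-07), while PAM18, the J protein that stimulates Ssc1 at the import channel, fell by 1.07 ± 0.20 (limma adjusted p = 9.55e-05). PAM16, the partner of Pam18, fell by 0.57 and ISU2, a second scaffold, fell by 0.98 (limma adjusted p = 0.028 and 0.0337). Of these J proteins MDJ1 rose and PAM18 fell in all 3 strains.

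Of 27 translocase genes, which carry proteins through the outer and inner membranes, 0 rose and 12 fell in the parental strain, with a median of -0.49, 1 rose and 12 fell in dpl1D, and 0 rose and 16 fell in lcb4D/lcb5D. Of all genes 21.8% rose and 24.5% fell in the parental strain, 20.6% and 26.6% in dpl1D, and 19.1% and 25.2% in lcb4D/lcb5D. Parental TIM10, a small chaperone between the membranes, fell by 1.23 ± 0.18 (limma adjusted p = 3.53e-06), TIM12, a related small protein, by 1.05, TIM23, the inner membrane channel, by 0.91 and TOM6, a small subunit of the outer membrane complex, by 0.83. TIM11, on the list by its name, encodes a subunit of the ATP synthase.

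Of 19 other proteases, processing peptidases and prohibitins, 6 rose and 2 fell in the parental strain (21.8% and 24.5% of all genes), 4 and 2 in dpl1D (20.6% and 26.6%), and 2 and 3 in lcb4D/lcb5D (19.1% and 25.2%). The dpl1D rises are near the share of all genes. In the parental strain MCX1, a matrix relative of bacterial ClpX, fell by 0.73 ± 0.14 (limma adjusted p = 9.63e-05) and ATP23, a protease of the intermembrane space, fell by 0.79 ± 0.17 (limma adjusted p = 0.000343). IMP2, a subunit of the inner membrane peptidase, rose by 0.87 and MAS1, a subunit of the matrix processing peptidase, by 0.68 (limma adjusted p = 0.00164 and 0.00624). In dpl1D and lcb4D/lcb5D the IMP2 difference was 0.15 and 0.07 and that of MAS1 0.25 and -0.02, none past the test. Other genes of this list, MGR1 and MGR3, rose in every strain. MGR1 rose by 1.34, 1.46 and 1.45 and MGR3 by 0.52, 0.40 and 0.63 in the parental strain, dpl1D and lcb4D/lcb5D. Of 14 assembly factors of respiratory enzymes, 3 rose and 1 fell in the parental strain, 4 and 0 in dpl1D, and 2 and 0 in lcb4D/lcb5D, and the parental rises are near the 21.8% of all genes. The shares of all genes are those given for the proteases. Parental CBP4 rose by 0.92, PET117 by 1.04 and SCO2 by 0.68, and ATP12, an assembly factor of the ATP synthase, fell by 0.46. PET117 differed by 0.22 in lcb4D/lcb5D (limma adjusted p = 0.548), and ATP12 by -0.25 in dpl1D (0.26) and -0.17 in lcb4D/lcb5D (0.468).

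Of 20 measured chaperones of the cytosol and endoplasmic reticulum, the counterparts of the set, 15 rose and 2 fell in the parental strain, 15 and 3 in dpl1D, and 14 and 3 in lcb4D/lcb5D, with medians of 1.55, 1.67 and 1.08. The same comparisons had 21.8%, 20.6% and 19.1% of all genes higher and 24.5%, 26.6% and 25.2% lower. In the parental strain SSA4, a stress-induced Hsp70, rose by 5.56 ± 0.37 (limma adjusted p = 1e-11) and the small heat shock protein gene HSP26 by 6.17 ± 0.42 (limma adjusted p = 1.77e-11). HSP42, another small heat shock protein gene, rose by 4.51 and HSP104 by 3.31. The genes that fell were subunits of the cytosolic chaperonin. TCP1 fell by 0.59 and CCT4 by 0.74 in the parental strain (limma adjusted p = 0.0108 and 0.00851). CCT2 differed there by -0.40 (limma adjusted p = 0.0695) and fell in both deletion strains, as did TCP1 and CCT4. The parental rise of HSP78, 3.76, lay between those of HSP104 and HSP42.

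**Figure D5:**
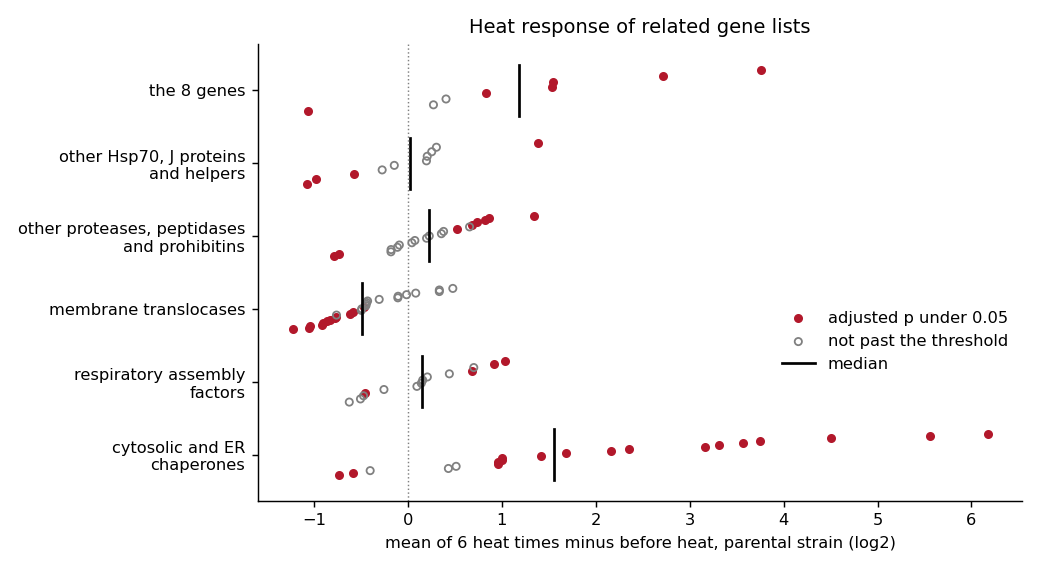
Mean of the 6 heat times minus the level before heat in the parental strain (log2, horizontal axis) for the 8 genes and 5 related lists; each point is a gene, filled red where limma's adjusted p is under 0.05, and the black bar is the list's median. The medians run from -0.49 for membrane translocases to 1.55 for the cytosolic and endoplasmic reticulum chaperones, with the 8 genes at 1.18.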

How the data were processed

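The authors deposited log2 values made with RMA (background correction, quantile normalisation and a summary of each probe set), which is named per the submitters' processing notes; no version is stated. The log base was inferred from the range, 1.36 to 14.7. Quantile normalisation hides a shift of all transcripts together. Gene names come from the platform annotation, and no genome build is named in the sources used here.

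Of 9335 probe sets, 60 are controls; 6504 of the others have 1 gene symbol, 328 have several and 2443 have none listed. Where a gene had several, its probe set of highest mean signal over the 42 arrays stood for it, giving 5656 genes. Each combination of strain and time was given a mean in limma 3.58.1 (R 4.3.3), with 21 residual degrees of freedom, all arrays in 1 fit, two-sided moderated tests and Benjamini-Hochberg adjustment. With 2 arrays a group, the array number limits the precision. The code was tested on simulated data.

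The members, gene lists and contrasts were chosen with earlier results of these data known. Named genes are the 8 members, up to 4 genes of smallest p in the parental mean heat response of each list, and the closest profiles by Pearson correlation over 21 means. TCP1, CCT2, CCT4, MGR1 and MGR3 were named in addition, to show list genes that those picks left out.

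Replicate numbers come from the labels. Over 9275 probe sets, deviations from the group mean of arrays with the same number correlated above 0.1 in 210 of 210 pairs of groups (lowest 0.130). Over the tested genes this held in 209 of 210 (lowest 0.067). The numbers thus pair the arrays, but the reported fit has no replicate term, so its adjusted p-values do not use this pairing. The replicate block is an alternative. With the block within each strain, 7, 8 and 7 genes were called in the mean heat response, against 6, 8 and 6 without it (parental strain, dpl1D, lcb4D/lcb5D). The share of all genes called with the block was not counted. The other alternatives were 3 normalisations (array medians, cyclic loess, hybridisation controls), a stricter threshold, a filter on dim genes, other moderation and gene summaries, array weights, a fit of the compared strains alone, and each of the 42 arrays left out. Sequences were not used here.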

Additional observations from a re-analysis of the deposited data

Results flagged for a closer look

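ECM10, the second matrix Hsp70, was the 1 gene of the 8 for which, in the heat comparisons examined, both replicates of a strain moved one way and both of another strain the other way. Its signal was low, with a mean of 5.24 over the 42 arrays against a lowest array median of 5.61. From middle to late heat ECM10 rose in both parental replicates and fell in both dpl1D replicates, a difference of 0.283. At 5 min it was above the level before heat in both dpl1D replicates and below it in both parental ones, a difference of 0.399. At 5 min both lcb4D/lcb5D replicates were also above and both parental ones below, a difference of 0.296. Both comparisons at 5 min use parental replicate 1 before heat, the array that stood apart by label. How many of all genes show such opposite directions was not counted. None of these 3 differences was tested on its own; the joint test of the 6 times gave ECM10 an unadjusted p of 0.228 for dpl1D and 0.623 for lcb4D/lcb5D against the parental strain (limma adjusted p = 1 for both).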

How the results depend on the processing

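The 288 single member values were recomputed under 53 alternative settings. Of 15264 recomputed values 14778 kept their call, 367 lost it, 119 gained it and 0 called values reversed. Centring on the hybridisation controls, which moved the median of all genes to between 0.16 and 0.26 in the mean heat response and to 0.63 late against middle in the parental strain, removed many calls: 17, 10 and 10 combinations of gene and time remained called in the parental strain, dpl1D and lcb4D/lcb5D, 3 and 2 genes in the mean heat response of dpl1D and lcb4D/lcb5D, 0 late against middle in the 3 strains, and 0 over all times in either lcb4D/lcb5D comparison. At an adjusted p under 0.01, 0, 0 and 1 genes were called late against middle, 15 combinations in lcb4D/lcb5D, and 0 over all times for lcb4D/lcb5D against the parental strain, as with median centring (0). Late against middle, cyclic loess called 2 in the parental strain and 2 in dpl1D, array weights 2 in the parental strain, the replicate block within strains 3 and 2, and across strains 3 and 3. The block turned no other count by over 1.5 times. With 1 array left out at a time, 0 to 2, 0 to 2 and 1 to 3 genes were called late against middle, 17 to 28 combinations in lcb4D/lcb5D, 0 to 1 genes before heat and 0 to 1 over all times for lcb4D/lcb5D against the parental strain. The late PIM1 gain lost its call without 5 parental arrays in turn (adjusted p 0.0524 to 0.0946), 6 dpl1D arrays (0.0638 to 0.123) and 4 lcb4D/lcb5D arrays (0.0763 to 0.146), with values of 0.40 to 0.65. The late MDJ1 fall in lcb4D/lcb5D was lost without any of 7 arrays of that strain (adjusted p 0.0555 to 0.219). The causes were not tested.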
